A study of Mus musculus with 12 samples.

Results

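The genes described here are 7 contractile genes among the 7318 genes of a count table from mouse mammary gland cells. They were chosen by name and read across all 12 libraries of the study. Acta2, Myh11 and Mylk were taken as smooth muscle type genes. Acta1, Ttn, Des and Fhl1 were taken as skeletal muscle type genes, although desmin is made by both kinds of muscle and Fhl1 is also found outside muscle.

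The cells came from 4-week-old female FVB/N mice of the genotype MMTV-Wnt1 / MMTV-iFgfr1. Every group carried both transgenes, which the MMTV promoter drives mainly in mammary epithelium: a Wnt1 transgene, and an inducible FGF receptor 1 that the compound AP20187 activates by bringing its molecules together. Mice were injected with AP20187 or with vehicle, and cells of several mammary glands were taken after 6 h. Glands were digested with collagenase and epithelial cells were enriched by brief spins, with no sort named, so other gland cells could remain. Each pellet gave an RNA library and a library of ribosome footprints, the short stretches of mRNA that ribosomes shield from nuclease. There were 3 libraries each of RNA with AP20187, RNA with vehicle, footprints with AP20187 and footprints with vehicle. Mice lacking the inducible receptor were not among the groups, so effects of the compound and of the receptor cannot be told apart. Whether a library stands for 1 mouse or several is not stated, so the p-values measure the spread between these libraries, which may be technical.

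Myoepithelial cells form the basal layer of the mammary epithelium and squeeze milk from the alveoli. They contract with the smooth muscle set of proteins: smooth muscle actin, smooth muscle myosin, and the kinase that switches that myosin on after a rise in calcium. Smooth muscle and pericytes of vessel walls use the same set, so these transcripts do not mark a single cell type in an unsorted gland. Skeletal muscle builds sarcomeres from another actin, and the giant protein titin spans from the Z-disc to the M-line. Serum response factor, which binds the CArG box, controls many genes of both kinds of muscle.

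Reads of the 2 actins can be told apart only where their sequences differ, and their first coding bases show how often they do. The following are the first 60 coding bases of each, 5′ to 3′ on the minus strand of GRCm38, with the bases that differ in capitals.
Acta1, chr8:123893638-123893697: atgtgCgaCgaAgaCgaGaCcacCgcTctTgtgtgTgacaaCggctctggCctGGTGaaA
Acta2, chr19:34252494-34252553: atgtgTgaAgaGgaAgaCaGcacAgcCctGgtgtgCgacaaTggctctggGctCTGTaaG
In this stretch 17 bases differed. Over the 1131 coding bases, 165 differed (85.4% identity), while 8 of 377 encoded residues did (97.9% identity). The longest run of bases shared at matching positions was 29, and no 30-base coding window of either gene occurred in a transcript of the other. Windows shared with any other annotated gene made up 6.08% of Acta1 (mainly Actb), 2.99% of Acta2 (mainly Actg1 and pseudogenes) and 1.22% of Myh11 (other myosin heavy chains). They made up 0.508% of Des and 0% of Mylk, Ttn and Fhl1. Reads from such stretches are uncertain, and how reads with several matches were counted is not stated. The windows cover exact matches of 30 bases only, not shorter reads or alignments with mismatches, also between the 2 actins.

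Windows around a start site were read from RefSeq (GRCm38.p6) for 6 of the 7 genes, 7 windows in all, and the 250 bases before the start were searched. The CArG box was searched as 10 letters, CC and GG around 6 letters that are each A or T. A CArG-like match has G or C at 1 of those 6 inner letters, and this form reads the same way on both strands. The matches are shown because this element links both muscle programmes, with the 10 letters in capitals in 30 bases of context, on the strand of the gene.
Acta1, chr8:123894829-123894858, CArG box: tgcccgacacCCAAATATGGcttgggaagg
Acta1, chr8:123894961-123894990, CArG-like: gggatactctCCATATACGGcctggtccgg
Acta1, chr8:123894910-123894939, CArG-like: ccagtcctctCCTTCTTTGGtcagtgcagg
Acta2, chr19:34255438-34255467, CArG-like: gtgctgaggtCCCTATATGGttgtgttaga
Acta2, chr19:34255388-34255417, CArG-like: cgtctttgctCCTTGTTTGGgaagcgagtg
Ttn, chr2:76982648-76982677, CArG-like: ctgtgatactCCCAAATAGGtcctctccca
Fhl1, chrX:56779571-56779600, CArG box: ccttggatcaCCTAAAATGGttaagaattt
The capitals begin 73, 205 and 154 bases before the Acta1 start, 84 and 34 before that of Acta2, 120 before that of Ttn and 102 before a start of Fhl1. Of 32851 windows of all genes, 1.47% held a CArG box and 7.24% a CArG-like match. The windows of Des and Mylk held neither. A match of letters is a description of the window and not a measured binding site.

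On GRCm38 with the GENCODE vM21 annotation, the smooth type genes lie at chr19:34241090-34255590 (Acta2, minus strand), chr16:14194535-14291372 (Myh11, minus strand) and chr16:34745210-35002420 (Mylk, plus strand). The skeletal type genes lie at chr8:123891769-123894751 (Acta1, minus strand), chr2:76703980-76982547 (Ttn, minus strand), chr1:75360329-75368579 (Des, plus strand) and chrX:56731787-56793346 (Fhl1, plus strand). Annotated genes on the opposite strand overlap Mylk, Ttn, Des and Acta1, and an snRNA gene overlaps Fhl1. None of these neighbours is among the 7318 genes, and the sources used here do not state whether counting used strand.

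The deposited table holds raw read counts per gene. Over the listed genes, RNA libraries held 94513818 to 251874393 counts and footprint libraries 1772969 to 11018709. CPM below is the count of a gene scaled to a common, TMM-adjusted library size, and 3 counts equalled 0.0121 to 0.0322 CPM in RNA but 0.282 to 1.64 CPM in footprints. These floors cover counting error only. A gene is said to have risen or fallen only where the edgeR quasi-likelihood test gave a Benjamini-Hochberg adjusted p under 0.05 over all genes tested. In RNA, 7314 genes were tested, of which 13.9% fell and 12.4% rose with AP20187. All 7 contractile genes were tested in RNA and in footprints.

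With AP20187, RNA of 6 of the 7 genes fell and none rose. All 3 smooth type genes fell, by 2.13-fold to 3.21-fold, and so did Ttn, Des and Fhl1 among the skeletal type genes, by 3.04-fold to 7.51-fold. Acta1 did not pass the test. In the same 6 genes every AP20187 library lay below every vehicle library, an ordering shown by 23.1% of all genes tested. The median log2 fold change was -1.60 over the 7 genes and 0.01 over all genes. In these bulk samples, fewer contractile cells and less of these RNAs per cell cannot be told apart.

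Acta2, which encodes smooth muscle alpha-actin, was the gene with the most reads of the 7. Its RNA stood at 227, 557 and 377 CPM in AP20187 libraries 1, 2 and 3, against 971, 787 and 717 CPM in vehicle libraries 1, 2 and 3. The groups did not overlap, and AP20187 library 2 came closest to the vehicle range. The log2 fold change was -1.09 ± 0.30 (SE, adjusted p = 0.0332, edgeR). This call was the least stable of the 6. It was lost without vehicle library 1 (adjusted p = 0.106), 2 (0.0562) or 3 (0.0764) and without AP20187 library 1 (0.0663) or 3 (0.0606), all by edgeR. Over all genes, RNA falls numbered 410, 997, 291, 394 and 732 in these fits, in that order, against 1013 with all libraries.

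Myh11 encodes the smooth muscle myosin heavy chain. Its RNA stood at 127, 269.98 and 127 CPM in AP20187 libraries and at 672, 428 and 580.1 CPM in vehicle libraries. AP20187 library 2 was again the highest of its group and still lay below the lowest vehicle library. The log2 fold change was -1.68 ± 0.32 (SE, adjusted p = 0.0111, edgeR), and the call held when any 1 library was left out.

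Mylk encodes the calcium- and calmodulin-dependent kinase that phosphorylates the myosin light chain, the step that starts smooth muscle contraction. In RNA it reached 40.5, 90.3 and 32.6 CPM in AP20187 libraries and at 179.9, 138 and 172 CPM in vehicle libraries. The groups were apart, with AP20187 library 2 highest in its group and vehicle library 2 lowest in its own, as for Myh11. The log2 fold change was -1.58 ± 0.35 (SE, adjusted p = 0.0171, edgeR). Without vehicle library 1 or 3 or AP20187 library 1, the adjusted p was 0.0519, 0.0611 and 0.0553 by edgeR. Of the fits with 1 library left out, these gave the fewest falls over all genes, at 410, 291 and 394.

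Acta1 encodes skeletal muscle alpha-actin and was scarce. Its RNA stood at 3.76, 0.793 and 4.04 CPM in AP20187 libraries, from 877, 93 and 376 counts, against 4.03, 3.08 and 2.80 CPM in vehicle libraries, from 1002, 400.0 and 269 counts. The groups overlapped, and AP20187 libraries 1 and 3 lay near the top of the vehicle range while library 2 lay far below it. The log2 fold change was -0.20 ± 0.54 (SE, adjusted p = 0.802, edgeR), and it turned to 0.25 without AP20187 library 2 (adjusted p = 0.507). AP20187 library 2 was thus lowest in its group for Acta1 and highest in its group for the other 6 genes.

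Ttn encodes titin, the molecular spring of the sarcomere. In RNA it had 1.92, 2.83 and 1.74 CPM in AP20187 libraries, against 9.18, 7.32 and 11.1 CPM in vehicle libraries. The groups were well apart, in contrast with those of Acta1, and Ttn RNA differed by -2.09 ± 0.30 in log2 (SE, adjusted p = 0.00657, edgeR).

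Des encodes desmin, the intermediate filament that ties myofibrils to each other and to the membrane. Desmin RNA amounted to 5.98, 7.76 and 6.04 CPM in AP20187 libraries, against 15.3, 20.2 and 24.6 CPM in vehicle libraries. No AP20187 library reached the lowest vehicle library, and the log2 fold change was -1.60 ± 0.24 (SE, adjusted p = 0.00684, edgeR).

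Fhl1 encodes a LIM domain protein that is most abundant in striated muscle. Fhl1 RNA amounted to 2.81, 5.24 and 2.84 CPM in AP20187 libraries, against 24.9, 19.5 and 37.4 CPM in vehicle libraries. It showed the widest gap of the 7 genes, at -2.91 ± 0.35 in log2 (SE, adjusted p = 0.0059, edgeR). The calls of Ttn, Des and Fhl1 held when any 1 library was left out.

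**Figure D1:**
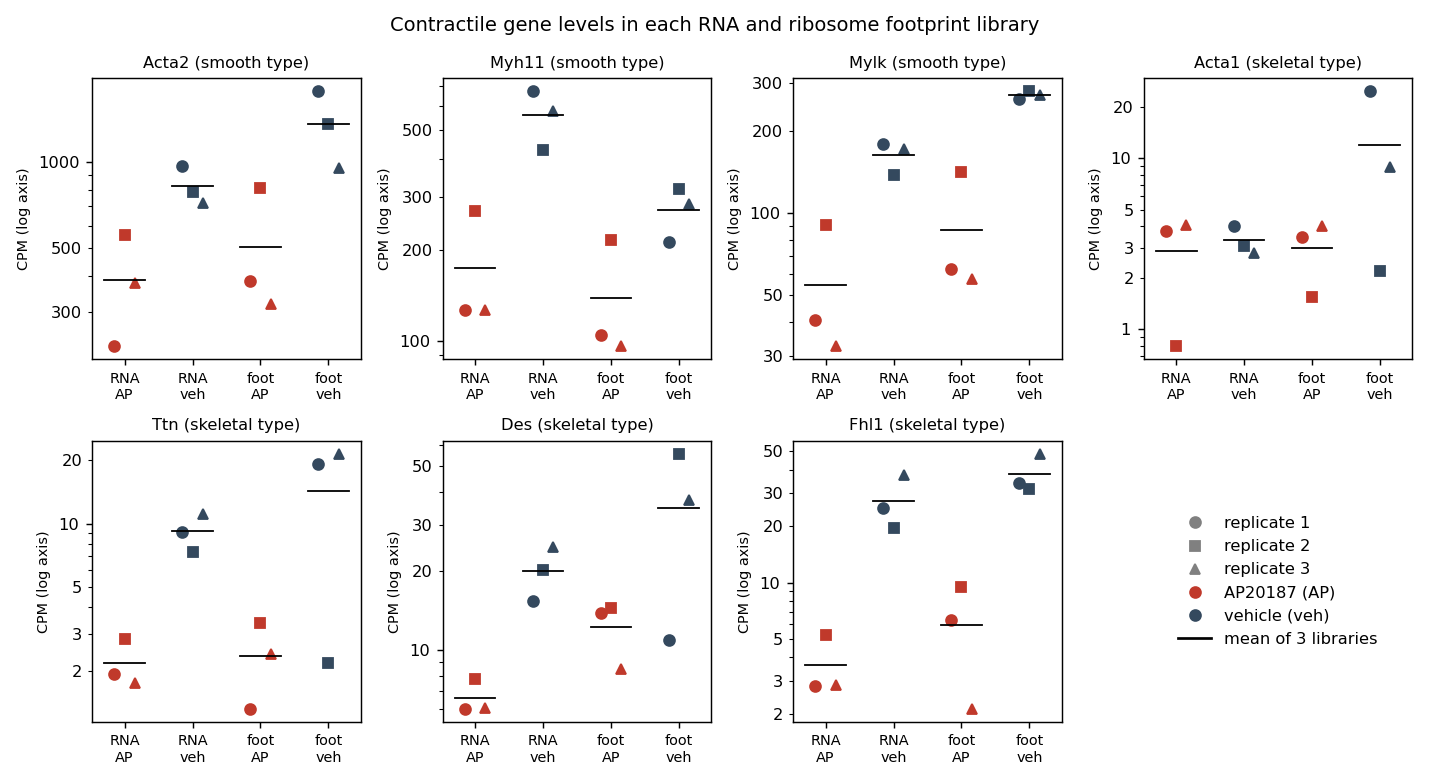
Scaled counts (CPM, log axis) of the 7 genes in each library, with RNA and footprints ("foot") of AP20187 (red) and vehicle (dark) libraries; symbols mark the replicate and lines the mean of 3 libraries. In RNA the 3 AP20187 points lie below the 3 vehicle points for every gene but Acta1, whose AP20187 values reach 4.04 CPM and whose vehicle values reach 4.03 CPM.

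Longer transcripts give more reads, so levels of different genes were set side by side per kilobase of annotated exon. With AP20187, Acta2 RNA averaged 176 ± 75.3 CPM per kb (SD, n = 3), followed by Myh11 at 23.0 ± 10.9, Mylk at 4.84 ± 2.78, Acta1 at 1.87 ± 1.17, Des at 1.76 ± 0.27, Fhl1 at 0.977 ± 0.376 and Ttn at 0.0185 ± 0.0050. With vehicle the order was Acta2 at 376 ± 59.8 CPM per kb (SD, n = 3), Myh11 at 73.7 ± 16.2, Mylk at 14.5 ± 1.99, Fhl1 at 7.34 ± 2.47, Des at 5.34 ± 1.24, Acta1 at 2.15 ± 0.42 and Ttn at 0.0787 ± 0.0160. The 3 smooth type genes thus led in both groups. Neighbours that lay within their spread were Acta1 and Des with AP20187, and Fhl1 and Des with vehicle. The very long annotated Ttn transcript lowers its value per kb.

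Footprints are reads of mRNA under translation. In footprints 7041 genes were tested, and far fewer passed: 1.6% fell and 0.937% rose. With any 1 vehicle library or AP20187 library 1 left out, 0 genes fell over all genes tested. Falls lost in those fits were thus lost for every gene. Of the 7 genes, Mylk and Fhl1 fell and none rose. The fitted log2 fold change was negative for all 7, with a median of -1.65 against 0.03 over all genes. Every AP20187 library lay below every vehicle library for Acta2, Mylk and Fhl1, an ordering shown by 11.8% of the genes tested. No sample title states that same-numbered AP20187 and vehicle libraries are pairs, and in RNA the numbers did not match throughout. Same-numbered footprint libraries correlated weakly, so a fit with the replicate as a block is given where it changes a call. Over all genes, 362 fell and 353 rose with the block, against 113 and 66 without it.

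Acta2 footprints stood at 384, 814 and 319.9 CPM with AP20187, against 1770.1, 1357 and 958 CPM with vehicle. The groups were apart, with AP20187 library 2 not far below vehicle library 3. The fitted difference was -1.43 ± 0.39 in log2 (SE, adjusted p = 0.0851, edgeR), and -1.51 ± 0.27 (adjusted p = 0.00284) in the fit with the replicate block.

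Myh11 footprints stood at 105, 217 and 96.1 CPM with AP20187, against 213, 319.6 and 285 CPM with vehicle. Here AP20187 library 2 slightly exceeded vehicle library 1, so the groups overlapped. The fitted difference was -0.97 ± 0.34 in log2 (SE, adjusted p = 0.175, edgeR), and -1.05 ± 0.22 (adjusted p = 0.0081) with the replicate block.

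Mylk footprints stood at 62.4, 142 and 57.3 CPM with AP20187, against 263, 280.3 and 273 CPM with vehicle. The vehicle libraries were close together and AP20187 library 2 was again the highest of its group, and the fitted difference was -1.65 ± 0.35 in log2 (SE, adjusted p = 0.0388, edgeR). The call held without AP20187 library 2 and was lost without any other library, with adjusted p between 0.0582 and 0.164 by edgeR. Of the fits that lost it, only the one without AP20187 library 3 had any fall over all genes, 86.

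For the skeletal type genes the footprint libraries held few reads. Fhl1 footprints stood at 6.29, 9.51 and 2.12 CPM with AP20187, from 67, 31 and 8 counts, against 34.0, 31.6 and 48.4 CPM with vehicle, from 62, 58 and 185 counts. The groups did not overlap, and the log2 fold change was -2.67 ± 0.53 (SE, adjusted p = 0.0309, edgeR). By edgeR, the call was lost without vehicle library 1 (adjusted p = 0.0668), 2 (0.0915) or 3 (0.107) and without AP20187 library 1 (0.128). In each of these fits 0 genes fell over all genes tested.

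Acta1 footprints numbered 37, 5 and 15 counts with AP20187, or 3.47, 1.53 and 3.98 CPM, against 45, 4 and 34 counts with vehicle, or 24.6, 2.18 and 8.90 CPM. Ttn footprints numbered 14, 11 and 9 counts with AP20187, or 1.31, 3.37 and 2.39 CPM, against 35, 4 and 82 counts with vehicle, or 19.2, 2.18 and 21.5 CPM. Vehicle library 2 was the low one for both genes and made the groups overlap. Vehicle library 2 held 1772969 counts in all and vehicle library 1 held 1867702, and the cause of the low values was not tested. Des footprints stood at 13.8, 14.4 and 8.496 CPM with AP20187, against 10.95, 55.6 and 37.2 CPM with vehicle, where vehicle library 1 fell inside the AP20187 range. None of the 3 passed the edgeR test: the log2 fold change was -1.95 ± 0.87 (SE, adjusted p = 0.294) for Acta1, -2.66 ± 0.86 (0.142) for Ttn and -1.49 ± 0.54 (0.189) for Des. Other fits passed some of them: Ttn passed with DESeq2 (adjusted p = 0.0241), and Ttn (0.0204) and Des (0.0441) passed in a joint edgeR fit of all 12 libraries. Single libraries moved the edgeR values: without vehicle library 1 that of Acta1 was -0.92, and without vehicle library 2 that of Des was -0.98. A missed threshold does not show that the footprints of these genes were alike.

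**Figure D2:**
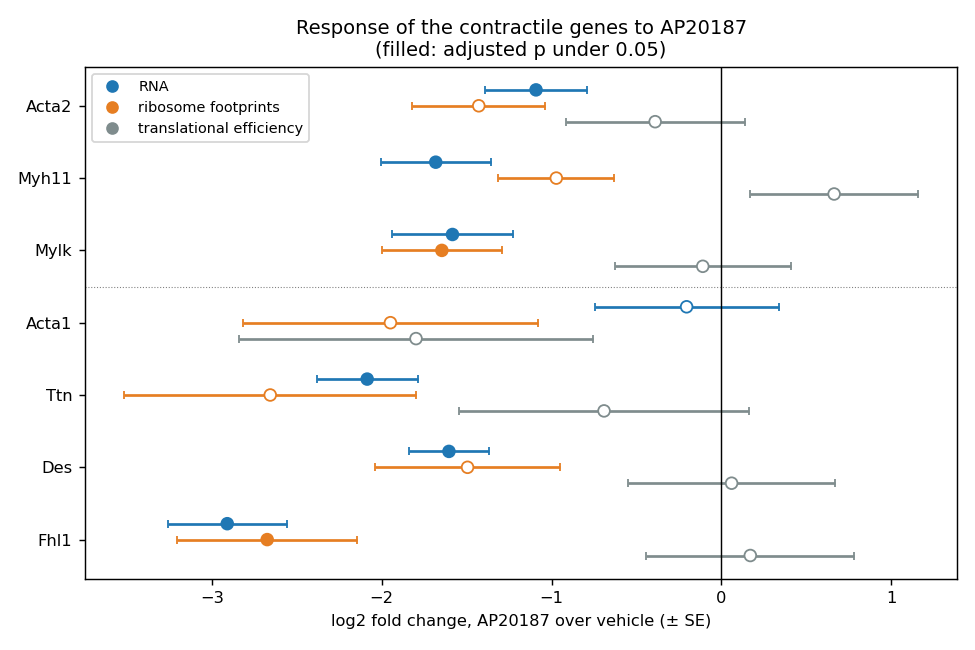
Log2 fold change, AP20187 over vehicle, with SE, of RNA (blue), ribosome footprints (orange) and their ratio, the translational efficiency (grey), with smooth type genes above the dotted line and skeletal type genes below it; filled circles have an adjusted p under 0.05. Filled RNA circles run from -1.09 (Acta2) to -2.91 (Fhl1), footprint circles are filled for Mylk and Fhl1, and no grey circle is filled.

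Translational efficiency is the ratio of footprints to RNA of a gene. Its change was taken as the assay-by-treatment interaction in a fit to all 12 libraries. That fit did not pair the RNA and footprint libraries of a pellet. A fit with the pellet as a block also gave 0 falls and 0 rises over all genes. Of 7315 genes tested, 0% fell and 0% rose by edgeR, and so none of the 7 passed. Over all genes 350 had an unadjusted p under 0.05, DESeq2 called 2 falls and 8 rises, and limma voom called 0. In simulated efficiency changes of 1 log2 unit, the unpaired edgeR fit recovered 5 of 100 genes, and at 2 log2 units 76 of 100. Changes of 1 log2 unit were thus seldom detectable by that fit, and the simulated counts held no pellet effect. Recovery was not split by read count, so it is not known for genes with few footprints, such as Acta1, Ttn and Des.

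Among the 7 genes, the largest efficiency estimate was that of Acta1, at -1.80 ± 1.04 in log2 (SE, adjusted p = 0.988, edgeR). It rests on the few footprints given above, and it ranged from -2.24 without RNA AP20187 library 2 to -0.73 without footprint vehicle library 1. Myh11 had the only positive estimate above its own SE, 0.66 ± 0.49 (adjusted p = 0.988, edgeR). This estimate ranged from 0.21 to 1.10 when 1 library was left out. With the pellet as a block it was 0.65 ± 0.32 (SE, adjusted p = 0.839, edgeR). The log2 ratio of Myh11 footprint CPM to RNA CPM was -0.27, -0.32 and -0.40 in AP20187 pellets 1, 2 and 3, against -1.66, -0.42 and -1.03 in vehicle pellets. The groups did not overlap, although vehicle pellet 2 lay next to AP20187 pellet 3. The share of all genes with such an ordering of ratios was not computed, so no weight is given to it. Footprint and RNA libraries were matched to a pellet by their number. Log2 CPM deviations of same-numbered libraries correlated at 0.450, 0.519 and 0.370 with AP20187, but at 0.053, 0.110 and 0.344 with vehicle. Footprint vehicle library 1 correlated more with RNA vehicle library 2 (0.155), so the matching of vehicle pellets is uncertain. The other 5 estimates lay between -0.69 (Ttn) and 0.17 (Fhl1), all within 1 SE of 0.

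**Figure D3:**
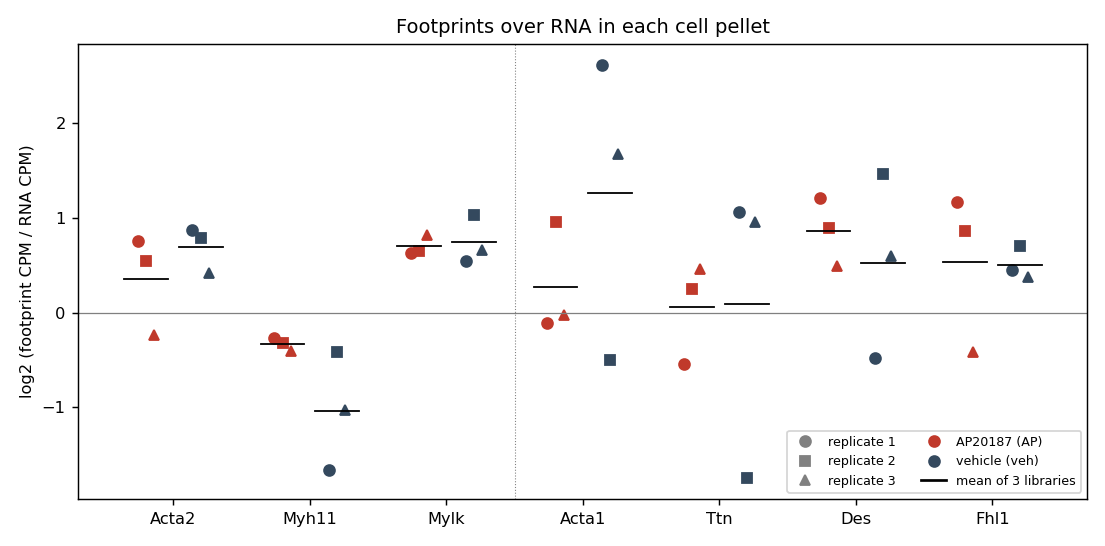
Log2 ratio of footprint CPM to RNA CPM of each gene in each cell pellet, AP20187 (red) left of vehicle (dark), with the mean of 3 pellets as a line. Libraries were matched to a pellet by number. Myh11 lies below 0 in all 6 pellets, between -0.27 and -0.40 with AP20187 and between -0.42 and -1.66 with vehicle, while Acta1 and Ttn vary most among vehicle pellets.

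The reads of each type were summed in every library, in CPM that are not scaled by transcript length. Such sums follow the balance of the types between libraries and do not compare molecule numbers. Summed RNA of Acta1, Ttn, Des and Fhl1 came to 14.5, 16.6 and 14.7 CPM with AP20187, against 53.4, 50.1 and 75.9 CPM with vehicle. Summed RNA of Acta2, Myh11 and Mylk came to 394, 918 and 537 CPM with AP20187, against 1823, 1353 and 1469 CPM with vehicle. Neither sum overlapped between the groups.

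As a share of the smooth type sum, the skeletal type sum was 3.67%, 1.81% and 2.73% in RNA with AP20187, against 2.93%, 3.71% and 5.17% with vehicle. These shares averaged 2.74% ± 0.93 with AP20187 and 3.93% ± 1.14 with vehicle (SD, n = 3 each), and they overlapped. In footprints they were 4.51%, 2.46% and 3.59% with AP20187, against 3.95%, 4.68% and 7.66% with vehicle, and overlapped too. No test was made of these shares, and the difference of their means was near the spread between libraries.

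The difference between the types depended on which genes stood for skeletal muscle. The median RNA log2 fold change was -1.84 for the 4 skeletal type genes and -1.58 for the 3 smooth type genes, a difference of -0.26. With Acta1 and Ttn alone as the skeletal type, the median was -1.15 and the difference turned to 0.44. Their share of the smooth type sum then averaged 0.971% ± 0.531 in RNA with AP20187 and 0.812% ± 0.116 with vehicle, and in footprints 0.878% ± 0.464 with AP20187 and 1.39% ± 1.01 with vehicle (SD, n = 3 each). Within the skeletal type, RNA differences ran from -0.20 (Acta1) to -2.91 (Fhl1) in log2, a wider range than the -1.09 to -1.68 of the smooth type.

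**Figure D4:**
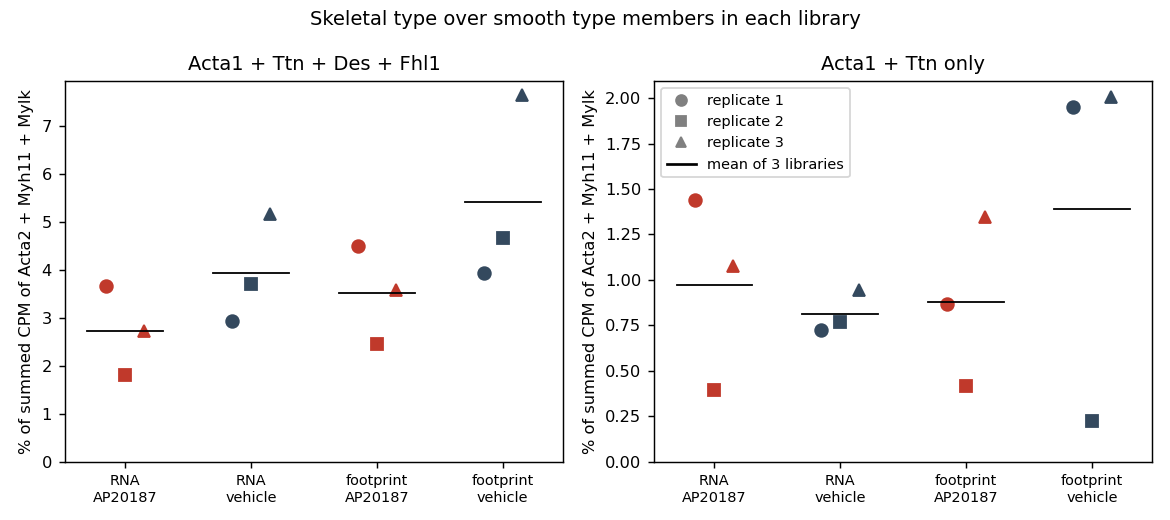
Summed CPM of the skeletal type genes as a percentage of the summed CPM of Acta2, Myh11 and Mylk in each library, with all 4 skeletal type genes at the left and Acta1 and Ttn alone at the right; AP20187 is red, vehicle dark, and lines are means of 3. The 4-gene share averages 2.74% in RNA with AP20187 and 3.93% with vehicle, with overlapping points, and the 2-gene share averages 0.971% with AP20187 and 0.812% with vehicle.

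Ratios of counts within a pair of genes, also not scaled by length, were compared between libraries only. Acta1 RNA equalled 1.66%, 0.142% and 1.07% of Acta2 counts in AP20187 libraries, against 0.415%, 0.391% and 0.390% in vehicle libraries. The 3 vehicle libraries were close to each other, and the AP20187 libraries lay on both sides of them. Mylk counts, in contrast, were 32.01%, 33.4% and 25.6% of Myh11 counts with AP20187, against 26.8%, 32.2% and 29.7% with vehicle, so this smooth type pair stayed between 25.6% and 33.4% in the 6 RNA libraries.

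Whether the skeletal type signal came with myofibres was checked against 13 defining myofibre markers, of which Atp2a1 and Myh4 are listed. Atp2a1, the calcium pump of fast muscle, had 0.990, 0.580 and 1.09 CPM of RNA with AP20187, against 1.32, 1.35 and 1.34 CPM with vehicle. Myh4, a fast myosin heavy chain, had 0.111, 0.452 and 0.419 CPM with AP20187, against 0.723, 0.954 and 0.395 CPM with vehicle. Both were low, and neither passed the test in RNA. In footprints, Atp2a1 had 0.563, 3.99 and 0.531 CPM with AP20187, against 12.6, 2.73 and 8.12 CPM with vehicle (adjusted p = 0.292, edgeR). Myh4 footprints came to 0, 0.307 and 0 CPM with AP20187, against 7.12, 1.09 and 0 CPM with vehicle, and did not enter the test. The footprint values rest on few reads, at most 31 counts in a library. The part of myofibres in the Ttn and Acta1 values was not tested.

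Other contractile genes were read from lists. Of 24 further smooth muscle contractile genes, 8 fell in RNA and none rose, with a median log2 fold change of -0.27. Those with the smallest p, given with the log2 fold change ± SE as throughout the lists, were Synpo2 (-2.31 ± 0.30), an actin-binding protein, Pdlim3 (-1.92 ± 0.31), a Z-disc and stress fibre protein, Myl9 (-1.44 ± 0.25), the regulatory light chain that Mylk phosphorylates, and Vcl (-1.24 ± 0.22), vinculin of adhesion sites. Tagln also fell (-0.79 ± 0.21), while Cnn1 (-0.48 ± 0.24), Smtn (0.44 ± 0.17), Flna (-0.23 ± 0.20) and Cald1 (-0.02 ± 0.15) did not pass. In footprints 2 of the 24 fell, Myl9 (-1.73 ± 0.35) and Pdlim3 (-2.47 ± 0.37), and none rose. Leaving out any vehicle library or AP20187 library 1 left 0 of the 24, as it left 0 falls over all genes. With the replicate block, 8 fell and none rose. The RNA falls ranged from 5 to 10 when 1 library was left out, at 5 without vehicle library 1 or 3 or AP20187 library 1. Over all genes, those fits gave 410, 291 and 394 falls and 307, 247 and 388 rises, against 1013 and 906 with all libraries. Fewer calls in those fits were thus shared by the whole table, here and in the RNA counts of the lists below. Without AP20187 library 3, 1 of the 24 rose.

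Of 13 further striated muscle genes that are listed, 4 fell in RNA and none rose, with a median log2 fold change of -0.66. They were Nebl (-2.45 ± 0.45), a nebulin relative, Actc1 (-1.77 ± 0.47), cardiac actin, Pygm (-1.44 ± 0.19), muscle glycogen phosphorylase, and Flnc (-1.42 ± 0.33), muscle filamin. Actc1 RNA was scarce, with means of 0.205 CPM with AP20187 and 0.691 CPM with vehicle. Ldb3 (0.72 ± 0.30), Ryr1 (0.16 ± 0.34) and Casq1 (-0.54 ± 0.32), genes of the Z-disc and of calcium release, did not pass. In footprints 6 of the 13 could be tested and 1 fell, Nebl (-2.38 ± 0.47). This call was lost without any vehicle library or AP20187 library 1, as was every fall over all genes. The RNA falls ranged from 2 to 6 when 1 library was left out, at 2 without vehicle library 1 or 3 or AP20187 library 1. Without vehicle library 2, 1 of the 13 rose.

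Of 27 genes that signal to contraction, 9 fell and 3 rose in RNA, with a median log2 fold change of -0.12. Ppp1r14a (-1.65 ± 0.31), an inhibitor of myosin phosphatase, Prkg1 (-1.27 ± 0.28), the cGMP-dependent kinase, and Plcb1 (-1.16 ± 0.21), a phospholipase that raises inositol trisphosphate, fell. Itpr3 (1.29 ± 0.22), an inositol trisphosphate receptor, rose. Oxtr, the oxytocin receptor that triggers myoepithelial contraction, had a log2 fold change of 0.09 and did not pass. The falls numbered 2 without vehicle library 1 or 3 and 4 without AP20187 library 1 or 3, and the rises numbered 1 without vehicle library 1 or 3. None of the 27 passed in footprints without the replicate block, and 2 fell and 1 rose with it. Without AP20187 library 3, 1 of the 27 rose in footprints.

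Among 9 genes of serum response factor and related regulators, 2 fell and 1 rose in RNA, with a median log2 fold change of -0.20. Mef2a (-0.85 ± 0.17), a MADS-box factor of muscle, and Wwtr1 (-0.57 ± 0.16), which encodes TAZ, fell, and Fhl3 (1.35 ± 0.31), a LIM protein related to Fhl1, rose. Srf (-0.29 ± 0.20) and its coactivator Mkl1 (-0.23 ± 0.15) did not pass. The falls numbered 0 without vehicle library 3 and 1 without vehicle library 1 or any AP20187 library. The rises numbered 0 without vehicle library 1 or 3 and 2 without AP20187 library 2. Non-muscle actins and myosins, needed in every cell, had 3 falls and 1 rise among 13 genes, with a median of -0.10. Myh10 (-0.95 ± 0.21), Myh14 (-0.85 ± 0.17) and Tpm3 (-0.65 ± 0.17) fell, Actn4 (0.77 ± 0.18) rose, and Actb (0.31 ± 0.19) did not pass. In this list the falls numbered 0 without vehicle library 1 or 3 and 1 without AP20187 library 1. Its rises numbered 0 without vehicle library 3 or AP20187 library 1 and 2 without AP20187 library 2. In footprints none of either list passed without the replicate block, and with it 1 of the 13 non-muscle genes rose.

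**Figure D5:**
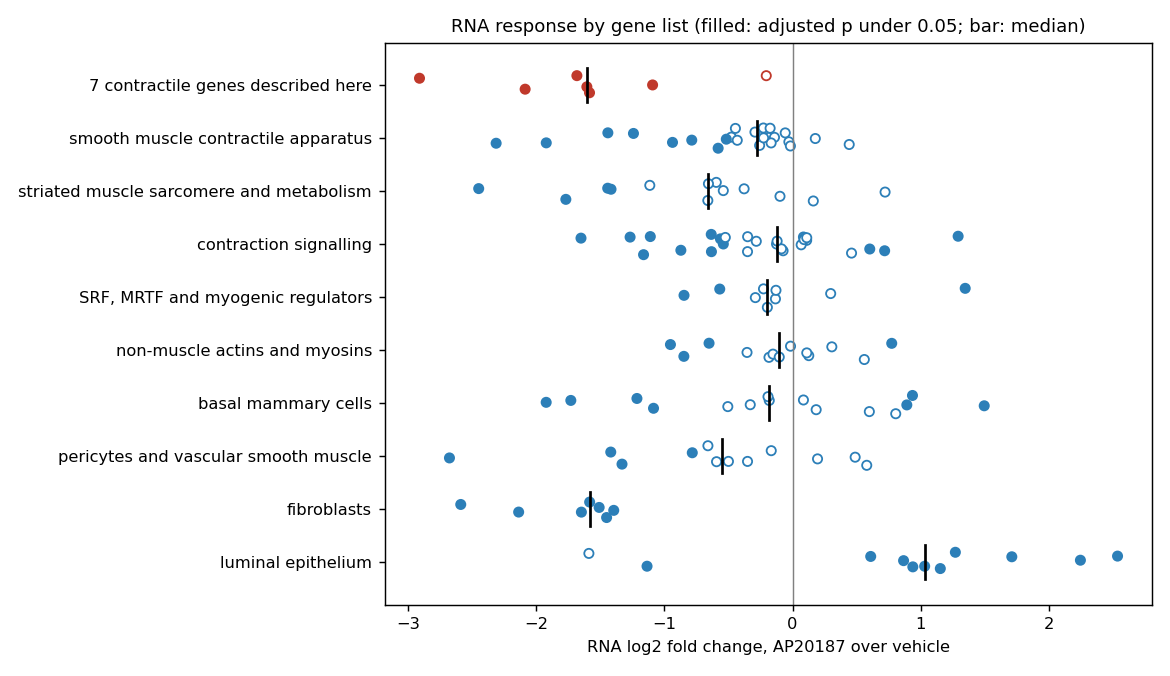
RNA log2 fold change, AP20187 over vehicle, of the 7 contractile genes (red) and of the other genes of each list (blue); filled circles have an adjusted p under 0.05 and bars are medians. The median of the 7 genes is -1.60, that of further smooth muscle contractile genes -0.27, that of fibroblast markers -1.58 and that of luminal markers 1.03.

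Markers of the cells that could carry these transcripts did not move as 1 group. Of 15 basal mammary markers, 4 fell and 3 rose in RNA, with a median log2 fold change of -0.18. Krt14 (-1.08 ± 0.21), Vim (-1.21 ± 0.18), Mme (-1.73 ± 0.36) and Procr (-1.92 ± 0.25) fell, and Krt17 (0.89 ± 0.21), Itgb4 (0.94 ± 0.16) and Lgals7 (1.495 ± 0.38) rose. Krt5 (0.80 ± 0.27, adjusted p = 0.0578, edgeR) and Trp63 (0.60 ± 0.19, adjusted p = 0.0534), which define the basal layer, did not pass. Without vehicle library 1 or 3 the rises numbered 1. In footprints 2 fell and 1 rose, and with the replicate block 4 fell and 2 rose. Leaving out any vehicle library or AP20187 library 1 left 0 footprint calls in this list, and 0 falls and 0 to 3 rises over all genes. The summed RNA of the basal markers was 4831 to 6108 CPM with AP20187, against 6464 to 7483 CPM with vehicle.

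Of 12 pericyte and vascular smooth muscle markers, 4 fell and none rose in RNA, with a median of -0.55. Sncg (-2.68 ± 0.37), Gucy1a3 (-1.42 ± 0.36), Gucy1b3 (-1.33 ± 0.21) and Nrip2 (-0.78 ± 0.24) fell, while Pdgfrb (-0.66 ± 0.22), Notch3 (-0.59 ± 0.20) and Mcam (0.58 ± 0.25) did not pass. The falls numbered 2 without vehicle library 1 or 3 or AP20187 library 1, and without AP20187 library 2 the falls numbered 5 and the rises 2. In footprints 1 fell, and 4 fell with the replicate block. Without AP20187 library 2 the footprint falls numbered 2, and leaving out any 1 of the other 5 libraries left 0. Summed RNA of the list overlapped, at 533 to 647 CPM with AP20187 and 535 to 635 CPM with vehicle, whereas summed footprints were 479.5 to 576 CPM with AP20187 and 713 to 990.5 CPM with vehicle.

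All 7 listed fibroblast markers and all 4 endothelial markers fell in RNA. The fibroblast sum was 1389 to 1930.1 CPM with AP20187, against 3893 to 7297 CPM with vehicle, and the endothelial sum 286 to 327 CPM with AP20187, against 531 to 717 CPM with vehicle. Of 6 adipocyte and 6 Schwann cell markers, 4 each fell and none rose. Endothelial and adipocyte falls numbered 2 each without vehicle library 3 or AP20187 library 1. Of 11 luminal markers, 9 rose and 1 fell, and their sum was 19483 to 27820.3 CPM with AP20187, against 5256 to 10264 CPM with vehicle. Csn3 (mean 7923 CPM with AP20187 and 1367 CPM with vehicle) and Trf (7330 and 1546 CPM) weighed most in this sum. Without vehicle library 3, the luminal rises numbered 4, and without vehicle library 1 or AP20187 library 1 they numbered 6. Of 3 macrophage markers 1 rose, and 0 rose without vehicle library 1 or 3 or AP20187 library 1. In these 6 lists no listed marker was at 0 in a whole group, and their part in the lower levels of the contractile genes was not tested.

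Genes whose RNA followed the contractile genes were ranked by the Pearson correlation of log2 CPM over the 6 RNA libraries, among 6849 genes with a mean of at least 5 CPM. With the mean of Acta2, Myh11 and Mylk, the closest were Abat (r = 0.998), Tspan9 (0.998), Uggt2 (0.998), Scarf2 (0.997) and Alox12 (0.996). Abat stood at 10.1, 18.7 and 10.4 CPM with AP20187, against 32.5, 24.4 and 29.8 CPM with vehicle, the same order of libraries as for Myh11 with AP20187 library 2 highest in its group. With the mean of Acta1 and Ttn, the closest included Kif5a (0.997), Avil (0.997), Pkp4 (0.993) and Hmgxb4 (0.988). Kif5a stood at 18.0, 11.3 and 18.4 CPM with AP20187, against 34.7, 26.7 and 33.1 CPM with vehicle, with AP20187 library 2 lowest in its group. With 6 libraries in 2 groups and this many genes ranked, such values are a description.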

How the data were processed

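RNA and ribosome footprints were counted in 12 libraries, 3 in each of the 4 groups. As deposited, the table gives whole read counts for each gene symbol, without normalization, and all 12 columns matched sample titles. HTSeq, STAR, Bowtie2, cutadapt and bcl2fastq 1.8.3 are named, with build mm10, per the submitters' processing notes. Their settings and the selection of the listed genes are not stated there. Totals are therefore sums over listed genes, not full depths.

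Counts were scaled by TMM, filtered with filterByExpr and compared by edgeR 4.0.16 (R 4.3.3; quasi-likelihood, 2-sided), with Benjamini-Hochberg adjustment over all genes tested and a threshold of 0.05. RNA and footprint libraries were fitted separately, with treatment as the only term. SE values were derived from the F statistic. A change shared by most genes would not show after this scaling. Alternatives were other scalings and filters, DESeq2 1.42.0, limma voom (limma 3.58.1), a replicate block, a joint fit and leaving out each library. For efficiency, a fit with the pellet as a block took the place of the joint fit.

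Log2 CPM deviations of same-numbered AP20187 and vehicle libraries correlated at 0.197, 0.269 and 0.380 in footprints for replicates 1, 2 and 3. The replicate block was therefore given beside the main fit there, although no sample title states a pairing. In RNA they correlated at 0.186, -0.05 and -0.10, all below the 0.222 of AP20187 library 3 with vehicle library 2. Whether the numbers pair the libraries is thus uncertain.

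The 7 genes and the lists were chosen with earlier results of these data known. Named list genes are up to 4 per list with the smallest RNA p, and others were named after their values had been seen. Genes alike in pattern were ranked by Pearson correlation of log2 CPM, with a prior count of 2. The 5 closest to each type were named, except 1 that is not reported here. On simulated counts, edgeR recovered, of 100 genes each changed by 1 or 2 log2 units, 66 and 99 in RNA (7311 genes) and 18 and 77 in footprints (7031 genes). Recovery was not split by read count. These values therefore do not give the recovery for genes with few footprints, such as Acta1, Ttn and Des.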

Additional observations from a re-analysis of the deposited data

How the results depend on the processing

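Among the recomputed RNA log2 fold changes of the 7 genes, 87 kept direction and side of the threshold, 10 lost the call and 1 reversed. All 10 losses concern Acta2 and Mylk. Acta2 passed in RNA neither with the replicate block (adjusted p = 0.0656, edgeR) nor in the joint fit of 12 libraries (0.0837). With 1 library left out, the Acta1 RNA log2 fold change ranged from -0.52 to 0.25, the positive value arising without AP20187 replicate 2. Over all genes, the RNA falls and rises numbered 661 and 620 with the replicate block, 330 and 333 in the joint fit, and 291 to 1166 and 247 to 1048 with 1 library left out.

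In footprints, 76 recomputed values of the 7 genes kept direction and side, 10 gained and 9 lost the call, and none reversed. The genes that fell numbered 4 with DESeq2 (Acta2, Mylk, Ttn and Fhl1), 4 with the replicate block (Acta2, Myh11, Mylk and Fhl1), 5 in the joint fit (Acta2, Mylk, Ttn, Des and Fhl1) and 0 to 4 with 1 library left out. Falls and rises over all genes numbered 315 and 213 with DESeq2, 362 and 353 with the block, 475 and 283 in the joint fit, and 0 to 123 and 0 to 84 with 1 library left out. The falls numbered 0 without any vehicle library or AP20187 library 1. Acta1, Ttn and Des gave no value under the filter of 50 counts. The cause of these moves was not tested.

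In efficiency no gene of the 7 passed under any setting. With 1 library left out, estimates of Mylk ranged from -0.63 to 0.44, of Des from -0.30 to 0.61 and of Fhl1 from -0.22 to 0.59; the reversed ones were 0.0035, 0.44, 0.14 and 0.15 for Mylk, -0.12, -0.01, -0.30 and -0.05 for Des, and -0.13 and -0.22 for Fhl1. Over all genes, DESeq2 gave 2 falls and 8 rises, and leaving out 1 library gave 0 to 1 rises. With Acta1 and Ttn alone as skeletal type, the share of the smooth type sum was 0.971% (AP20187) and 0.812% (vehicle) in RNA and 0.878% (AP20187) and 1.39% (vehicle) in footprints. The depth of the footprint libraries sets the floor of 3 counts at 0.282 to 1.64 CPM.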
